A study of Mus musculus with 12 samples.

Results

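The genes described here are the 39 members of the 4 mouse Hox clusters, chosen by symbol (Hoxa, Hoxb, Hoxc or Hoxd followed by a number) from the 55228 genes counted in mesenchyme of the embryonic lower urinary tract. HoxA has 11 of them, HoxB 10, HoxC 9 and HoxD 9, and 36 of the 39 had enough counts to be tested. RNA came from wildtype, untreated female CD-1 embryos at embryonic day 14.5 (E14.5) and E18.5, and the study asked which genes mark each compartment of the developing bladder and urethra. The 4 groups were bladder mesenchyme and mesenchyme of the proximal (pelvic) urethra at each stage, with 3 libraries per group. Each library was a pool of the female embryos of 1 litter, taken from 3 litters at each stage, so that no single embryo was measured, and the mesenchyme was peeled from the epithelium after trypsin treatment.

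Hox proteins are homeodomain transcription factors that give cells a position along the head-to-tail axis. Genes with the same number in different clusters are paralogues, and genes with higher numbers lie nearer the 5′ end of their cluster and are as a rule expressed later and closer to the tail. In the lower urinary tract, Hoxa13 and Hoxd13 are the classical members: mice that lack both do not partition the cloaca into hindgut and urogenital sinus, the source of bladder and urethra.

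Total counts per library ranged from 21495169 to 36349777. The 5 mesenchyme markers examined had counts in all 12 libraries. At E14.5 their sums were 13250 to 17650 CPM (counts scaled to library size) in bladder and 5866 to 8955 CPM in urethra. At E18.5 they were 19400 to 23250 and 11200 to 12440 CPM. Single members went both ways, with 3 higher and 2 lower in bladder at E14.5, and 2 and 2 at E18.5. Their part in the Hox differences was not tested. Epithelial markers were present too, at 255.5 to 1351 CPM in the E14.5 groups, 2330 to 3465 CPM in urethra at E18.5 and 7849 to 10450 CPM in bladder at E18.5, so the libraries labelled mesenchyme were not free of epithelial RNA. Bladder E14.5 replicate 1 had the highest epithelial, neuronal, glial and mesothelial sums of its group, and some results are given with and without it. Reproductive duct markers summed to 28.6 CPM in it and to 3.44 and 3.59 CPM in replicates 2 and 3. In bladder at E18.5 they summed to 0.673, 9.12 and 1.89 CPM, replicates 1 to 3 in order. Of these 5 markers 4 were tested, and 0 were called between compartments at either stage. Their part in the Hox levels was not tested. In bulk tissue, fewer cells of a type and less RNA per cell cannot be told apart.

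The HoxD cluster, on mouse chromosome 2 (chr2:74668310-74765142 of GRCm38, 96.8 kb), held genes that differed between compartments in opposite directions, and 3 of its promoters are shown for that reason. Each is the stretch of 250 bases before the gene's start in RefSeq (GRCm38.p6), plus strand. Capitals mark the letters TTTAT or its reverse complement, part of the site preferred by the HOX proteins of the posterior groups.
Hoxd13 (chr2:74667975-74668224): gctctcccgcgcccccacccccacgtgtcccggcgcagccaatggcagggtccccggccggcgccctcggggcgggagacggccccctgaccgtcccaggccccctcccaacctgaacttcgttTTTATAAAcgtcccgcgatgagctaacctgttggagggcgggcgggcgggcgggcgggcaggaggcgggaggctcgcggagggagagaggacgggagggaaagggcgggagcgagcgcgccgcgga
Hoxd12 (chr2:74674763-74675012): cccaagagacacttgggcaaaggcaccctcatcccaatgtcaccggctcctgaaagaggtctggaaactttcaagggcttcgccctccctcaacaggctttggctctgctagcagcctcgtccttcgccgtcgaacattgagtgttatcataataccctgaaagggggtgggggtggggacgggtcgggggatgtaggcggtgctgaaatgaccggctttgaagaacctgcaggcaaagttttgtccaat
Hoxd8 (chr2:74704365-74704614): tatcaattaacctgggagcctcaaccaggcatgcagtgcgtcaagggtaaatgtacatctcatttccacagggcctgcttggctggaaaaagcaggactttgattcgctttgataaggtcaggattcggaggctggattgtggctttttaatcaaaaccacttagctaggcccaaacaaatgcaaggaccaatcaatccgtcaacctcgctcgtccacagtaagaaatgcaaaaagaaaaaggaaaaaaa
The Hoxd13 stretch holds 31 CG dinucleotides and is 74.4% G or C. The Hoxd12 stretch holds 10 (55.6%) and the Hoxd8 stretch 6 (44.4%).

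RefSeq windows from 250 bases before to 50 bases after a start were at hand for 22 of the 39 genes, 24 windows in all. Their median G or C content was 57.6%, against 52.7% over all 32851 windows, and the median number of CG dinucleotides was 14.5 against 7. On either strand, TTTAT lay in 9 of the 24 Hox windows (37.5%) and in 40.0% of all windows. In Hoxd13 its 2 matches overlap each other and the letters TATAAA, which lay in 16.7% of Hox windows and 13.6% of all. CCAAT lay in 62.5% of Hox windows and 37.4% of all. These are matches of letters and not sites of binding.

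Per kilobase of exon, the most abundant members were those of the 5′ ends of HoxA and HoxD. Averaged over the 12 libraries, the 4 highest in HoxD were Hoxd13 (45.2 CPM per kilobase), Hoxd12 (15.2), Hoxd8 (7.41) and Hoxd10 (6.91). In HoxA they were Hoxa13 (35.9 CPM per kilobase), Hoxa10 (21.7), Hoxa11 (19.03) and Hoxa9 (5.63). HoxC followed with Hoxc10 (6.75 CPM per kilobase), Hoxc11 (4.05), Hoxc9 (1.57) and Hoxc6 (1.335), and HoxB with Hoxb3 (5.14), Hoxb7 (3.49), Hoxb6 (3.21) and Hoxb9 (3.175). These averages cover groups that differ. Hoxb3 led HoxB in urethra, whereas in bladder Hoxb9 led at E14.5 (3.39 CPM per kilobase, against 1.34 for Hoxb3) and Hoxb6 at E18.5 (5.07 against 2.90). Hoxd8 led HoxD in bladder at E18.5 (11.2 CPM per kilobase, against 9.97 for Hoxd13). Hoxb13, at the posterior end of HoxB, lay between 1.04 ± 1.10 (SD, n = 3) CPM per kilobase in bladder at E14.5 and 3.10 ± 0.90 in bladder at E18.5.

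At the other extreme, Hoxb1, Hoxc12 and Hoxc13 were nearly silent. Hoxb1 and Hoxc13 each had at most 4 counts in a library and were above 0 in 4 of 12 libraries, and Hoxc12 had at most 2 counts and was above 0 in 2. A count of 0 allows up to 3 counts, which is 0.0825 to 0.140 CPM at these depths, counting error only. In every library, counts of 2 were 2.06 to 2.51 times as common as counts of 1. Even values made up 62.9 to 68.2% of the non-zero counts under 21. Counts may thus not be independent of one another, in which case this floor is too low. The reason for the excess of even counts was not tested. Of paralogue group 13 the clusters therefore differed widely, with Hoxa13 and Hoxd13 abundant, Hoxb13 low and Hoxc13 at or near 0.

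**Figure D1:**
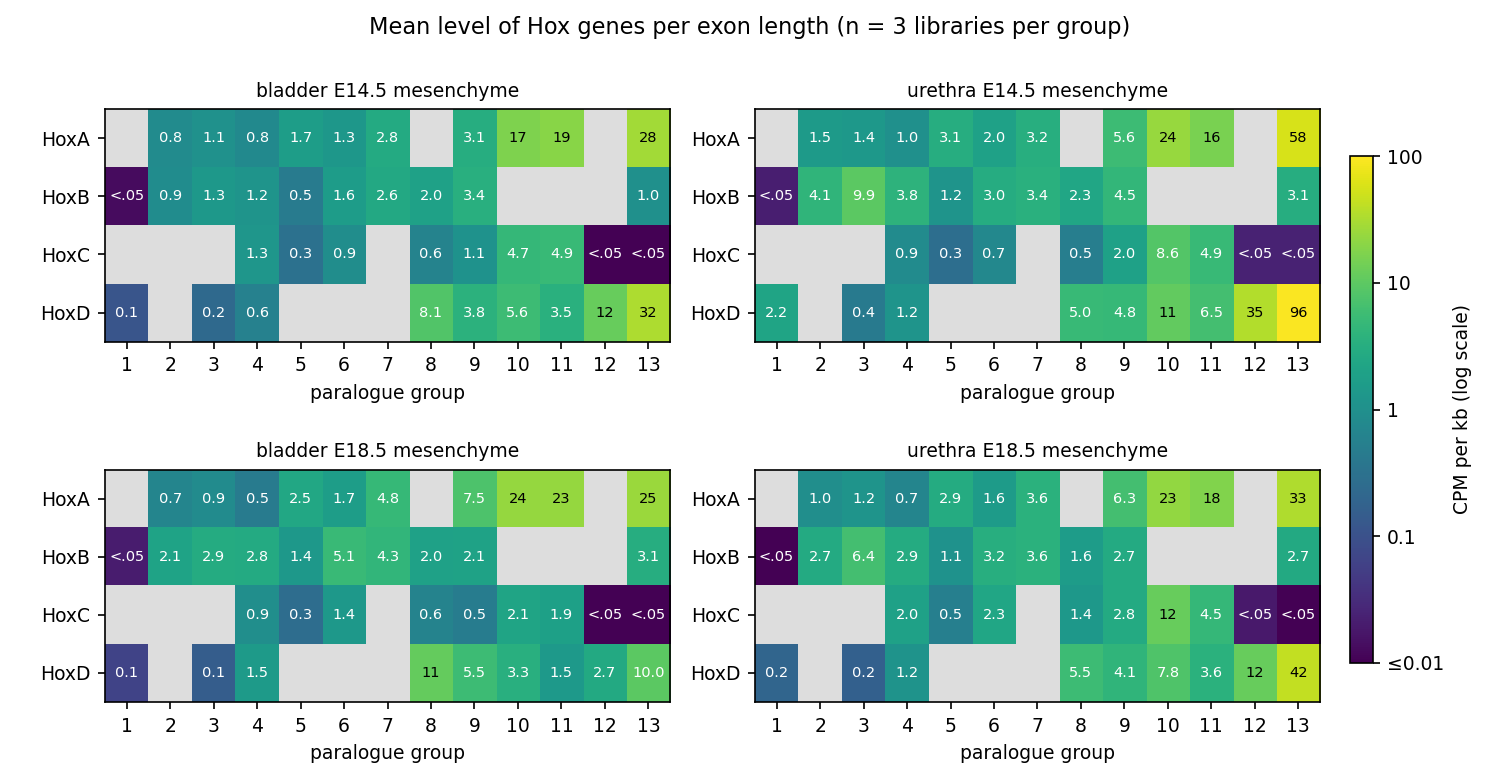
Mean level of the Hox genes in the 4 groups, in CPM per kilobase of exon on a log color scale (n = 3 libraries per group), with clusters as rows and paralogue groups as columns. Grey cells hold no gene or are not shown. The highest cells are Hoxa13 and Hoxd13 in 3 of the 4 groups, while in bladder at E18.5 Hoxd13 is below Hoxa13, Hoxa10, Hoxa11 and Hoxd8, and the cells of Hoxb1, Hoxc12 and Hoxc13 are near 0.

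Summed over all 39 genes, the Hox level was highest in urethra at E14.5. It was 331 ± 20.2 CPM per kilobase (SD, n = 3) there and 170 ± 20.7 in bladder of that stage, and 220 ± 9.93 in urethra and 160 ± 8.99 in bladder at E18.5. The libraries of bladder and urethra did not overlap at either stage (152.7 to 192.9 against 312.6 to 352.4 at E14.5, and 150.8 to 168.7 against 209.5 to 229.2 at E18.5). Most of the sum belonged to paralogue groups 9 to 13.

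At E14.5 more Hox genes were higher in urethral than in bladder mesenchyme. Of the 36 tested, 12 were lower in bladder (33.3%, where 12.5% of all 18805 tested genes were lower) and 1 was higher (2.8%, where 12.4% of all were). The median log2 difference, bladder minus urethra, was -0.84 over the Hox genes and -0.004 over all genes. By cluster, the genes lower in bladder were 5 of 9 tested in HoxD, 4 of 9 in HoxB, 3 of 11 in HoxA and 0 of 7 in HoxC, and the 1 higher gene was Hoxd8. Calls are adjusted p under 0.05 from edgeR's quasi-likelihood test with Benjamini-Hochberg adjustment over all genes, as are all adjusted p-values below.

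The posterior HoxD genes formed a block that was higher in urethra. Hoxd13, which shapes the genital tubercle and digits, was at 76.5, 77.4 and 86.7 CPM in the bladder libraries and at 212, 216 and 288 CPM in the urethral libraries. Every urethral value was above every bladder value (log2 difference -1.57 ± 0.14 SE, adjusted p = 4e-05). Its neighbour Hoxd12 was at 31.7, 25.6 and 32.7 CPM in bladder and at 94.8, 69.2 and 98.3 CPM in urethra, again without overlap (-1.54 ± 0.20, adjusted p = 0.000284). Hoxd11, which acts with its group 11 paralogues in kidney and limb, was at 15.3, 12.6 and 16.0 CPM in bladder and 22.5, 32.4 and 27.2 CPM in urethra (-0.90 ± 0.20, adjusted p = 0.00646). Hoxd10 was at 11.6, 8.62 and 10.1 CPM in bladder and 16.7, 23.1 and 19.9 CPM in urethra (-0.98 ± 0.19, adjusted p = 0.00332). The estimates were largest at the 5′ end, in Hoxd13 and Hoxd12, and smaller in the next 2 genes, a gradient that was not tested. Other cell types' markers moved with these genes. Of 4 cartilage markers 3 were tested and 2 were lower in bladder, with sums of 7.91 to 18.4 CPM in bladder and 52.8 to 74.6 CPM in urethra and at most 1 at 0 in a library. Of 9 neuronal markers 8 were lower in bladder, and of 5 glial markers 3, none at 0. Of 6 skeletal muscle markers 2 were lower, with overlapping sums (9.82 to 28.7 CPM in bladder and 5.21 to 48.98 CPM in urethra). Of 5 endothelial markers 1 was higher in bladder. Their part in the HoxD and HoxA differences was not tested.

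Further along the cluster the direction turned. Hoxd9 was at 10.65, 6.17 and 7.22 CPM in bladder and 10.25, 9.89 and 10.5 CPM in urethra, and the ranges overlapped (-0.35 ± 0.23, adjusted p = 0.291). Hoxd8 was at 24.8, 20.6 and 21.02 CPM in bladder and 15.1, 12.4 and 13.3 CPM in urethra, so every bladder library was above every urethral one (0.70 ± 0.14, adjusted p = 0.00473). The start of Hoxd8 (chr2:74704615) lies 3′ of the end of Hoxd9 (chr2:74700208), with no other member between them. Smooth muscle markers moved with Hoxd8: 5 of 6 were higher in bladder at E14.5 (sum of 6110 to 8156 against 1564 to 3460 CPM) and 6 of 6 at E18.5, none at 0, and their part in the Hoxd8 difference was not tested. Mesothelial markers moved that way as well, with 3 of 6 higher in bladder at E14.5 and 5 of 6 at E18.5. Of 10 epithelial markers 5 were higher in bladder at E18.5, while at E14.5 2 were higher and 2 lower. The part of these 2 marker sets was not tested either.

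At the 3′ end of HoxD, Hoxd1, known from pain-sensing neurons, was low throughout. It was at 0.549, 0.0829 and 0 CPM in bladder and at 2.345, 4.945 and 4.74 CPM in urethra, without overlap (log2 difference -4.26 ± 0.77, adjusted p = 0.00231). The bladder libraries held 12, 2 and 0 counts, replicates 1 to 3 in order, and without replicate 1 they are at or under the floor of 3 counts, so no value is given for that setting. Hoxd3 and Hoxd4 were not called (adjusted p = 0.314 and 0.139). Over 50% of the exon bases of each are shared with other annotated genes (62.8% and 52.3%), mostly with genes on the same strand, so that reads can be split between genes and their levels are uncertain.

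In HoxA, Hoxa13, the partner of Hoxd13 in the cloaca and limb, was at 63.5, 73.4 and 69.2 CPM in bladder and 155, 120 and 156 CPM in urethra. The groups did not overlap (-1.06 ± 0.15, adjusted p = 0.00049). Hoxa11, a gene of kidney and female tract development, was at 51.9, 38.2 and 42.4 CPM in bladder and 47.2, 30.5 and 31.4 CPM in urethra, with overlap (0.28 ± 0.17, adjusted p = 0.233). Its exons share 35% of their bases with the antisense gene Hoxa11os, and the strand setting of the counting is not given in the sources used here, so its level is uncertain as well. Hoxa10 and Hoxa9 were lower in bladder (-0.51 ± 0.17 and -0.87 ± 0.26, adjusted p = 0.0451 and 0.0271). Hoxa9 was at 23.9, 13.9 and 13.5 CPM in bladder and 29.5, 42.1 and 22.1 CPM in urethra, and both genes had overlapping libraries. Leaving out 1 library ended the Hoxa10 call in 5 of 6 cases (bladder replicates 2 and 3 and each urethral replicate, adjusted p = 0.0526 to 0.16) and the Hoxa9 call in 3 (bladder replicates 2 and 3 and urethra replicate 2, adjusted p = 0.0964 to 0.109).

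In HoxB, 4 adjoining genes, Hoxb2 to Hoxb5, were lower in bladder at E14.5. Hoxb3, a gene of the hindbrain and pharyngeal arches, was at 11.5, 3.36 and 2.29 CPM in bladder and 43.6, 40.7 and 41.6 CPM in urethra (-2.88 ± 0.48, adjusted p = 0.00183). Hoxb4, also used as a stem cell factor in blood, was at 4.66, 2.445 and 1.903 CPM in bladder and 10.9, 9.84 and 8.775 CPM in urethra (-1.71 ± 0.31, adjusted p = 0.0021). Hoxb2 was at 5.67, 2.24 and 1.38 CPM in bladder and 14.9, 13.6 and 14.4 CPM in urethra (-2.21 ± 0.39, adjusted p = 0.00202). In all of these the urethral libraries were close together and above every bladder library. Hoxb5, a gene of the gut's nervous system and lung, was at 1.87, 1.08 and 0.951 CPM in bladder and 2.95, 4.21 and 2.75 CPM in urethra (-1.35 ± 0.42, adjusted p = 0.033), a call that ended without bladder replicate 2 or 3 or urethra replicate 2 or 3 (adjusted p = 0.0524 to 0.123).

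Bladder replicate 1 was the highest of its group for each of Hoxb2 to Hoxb5. Without it, the log2 difference of Hoxb3 was -3.90 and that of Hoxb2 -2.99, and 19 instead of 12 Hox genes were lower in bladder. Neuronal markers moved with these genes: 8 of 9 were lower in bladder, none was at 0 in any library, and their sum was 302, 60.0 and 111 CPM in bladder and 710, 465 and 605 CPM in urethra. Their part in the HoxB difference was not tested. Exon bases shared with Hoxb3os on the other strand make up 52.9% of Hoxb3 and 27.3% of Hoxb2, and Hoxb3os was itself lower in bladder (-3.14 ± 0.49, adjusted p = 0.00101), so the reads of these genes cannot be told apart with certainty. Hoxb4 and Hoxb5 share at most 3.6% of their exon bases with another gene.

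Hoxb13, which marks the posterior urogenital sinus and prostate, was low at E14.5. It was at 4.94, 1.74 and 0.173 CPM in bladder at E14.5 and at 6.39, 9.16 and 4.81 CPM in urethra, with overlap (-1.58 ± 0.70, adjusted p = 0.12). It was called by limma-voom (-2.52, adjusted p = 0.0258) and by edgeR without bladder replicate 1 (-2.83, adjusted p = 0.00773) or with the replicate block (-2.10, adjusted p = 0.0367). The block rests on replicate numbers that are not taken to pair the compartments at this stage. Of the HoxC genes, 0 of 7 tested were called at E14.5, with adjusted p from 0.0523 (Hoxc10) to 1 (Hoxc11). At an unadjusted p under 0.05, 2 of the 7 passed. DESeq2 and limma-voom each called Hoxc10 (adjusted p = 0.025 and 0.0443), as did edgeR without bladder replicate 1 (-1.28, adjusted p = 0.00768).

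**Figure D2:**
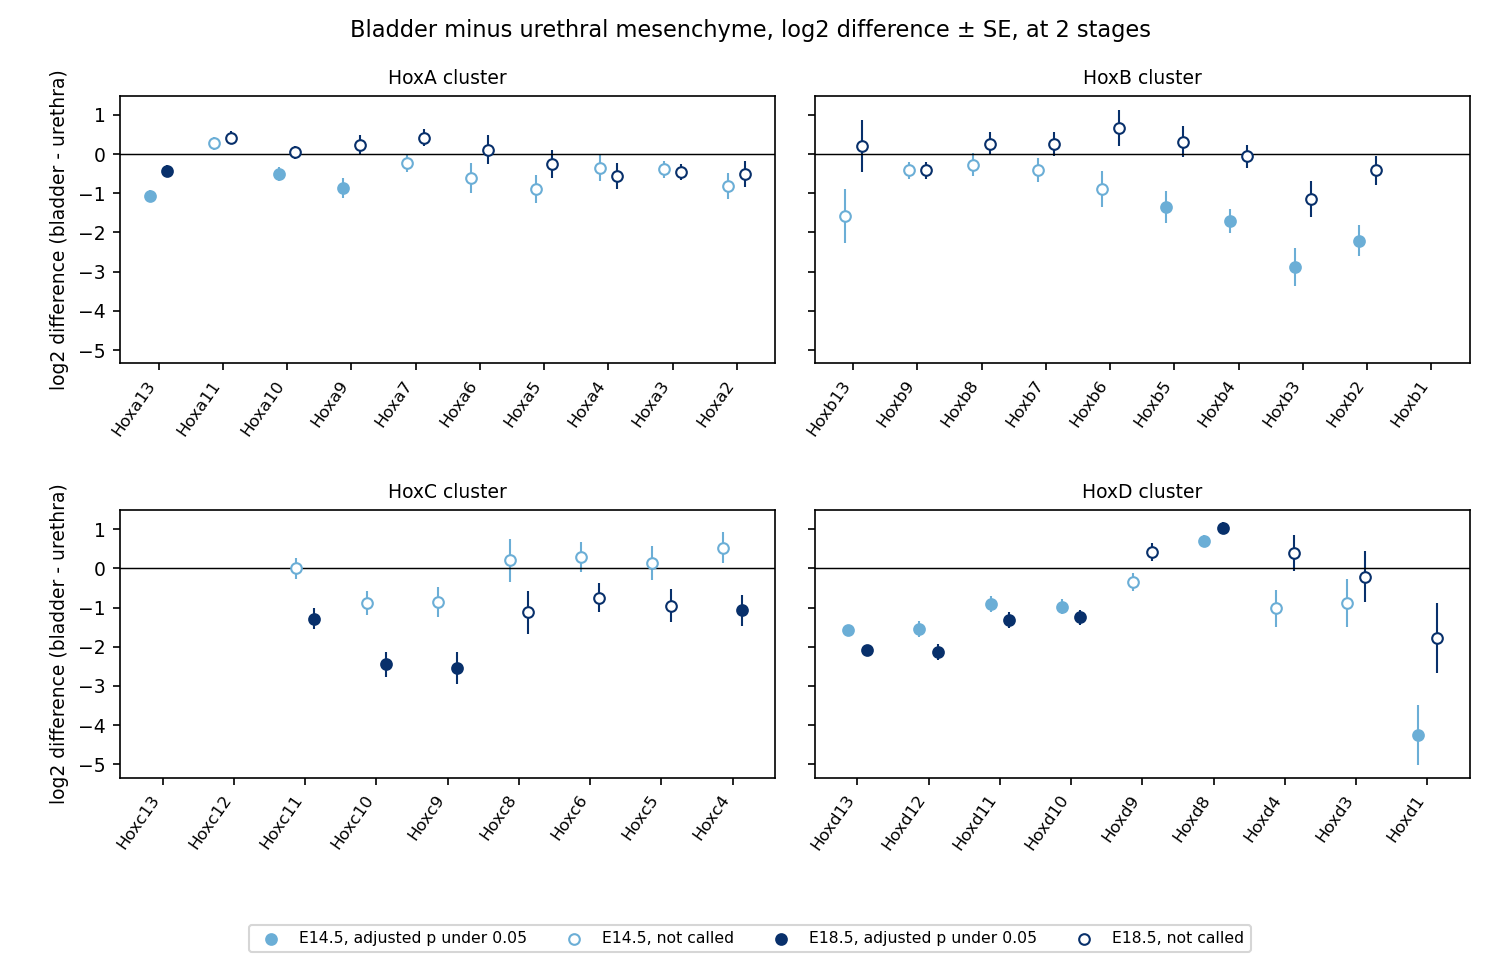
Log2 difference between bladder and urethral mesenchyme (vertical axis, bladder minus urethra, ± SE) for tested Hox genes of each cluster, ordered from 5′ to 3′, at E14.5 (light blue) and E18.5 (dark blue), n = 3 libraries per group. Filled points passed an adjusted p of 0.05. In HoxD both stages run from below 0 at Hoxd13 to above 0 at Hoxd8, the HoxB points near Hoxb3 are lowest at E14.5 and the HoxC points near Hoxc9 are lowest at E18.5.

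At E18.5, 9 of the 36 tested Hox genes were lower in bladder than in urethral mesenchyme (25.0%, where 16.2% of all genes were). The 1 higher gene was Hoxd8, which makes 10 called in either direction, where 34.8% of all genes were. The median log2 difference was -0.41 over the Hox genes and 0.047 over all genes. In 16 genes (44.4%) every urethral library was above every bladder library, against 24.2% of all genes, and in 5 (13.9%) the reverse held, against 27.9%. The calls lay in HoxD (4 lower, 1 higher), HoxC (4 lower) and HoxA (1 lower). In HoxB 0 of 9 tested genes were called. At an unadjusted p under 0.05, 1 of the 9 passed, and DESeq2 and limma-voom each called Hoxb3 (adjusted p = 0.0206 and 0.00667). With the replicate block, whose numbers were taken to pair the compartments at this stage, edgeR called Hoxb3 as well (-1.19, adjusted p = 0.0347).

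The posterior HoxD block was again higher in urethra. Hoxd13 was at 26.3, 25.4 and 22.6 CPM in bladder and 118, 95.35 and 102 CPM in urethra (-2.09 ± 0.14, adjusted p = 1.26e-06). Hoxd12 was at 6.24, 6.49 and 7.87 CPM in bladder and 34.6, 21.8 and 33.4 CPM in urethra (-2.12 ± 0.20, adjusted p = 1.36e-05). Hoxd11 was at 5.68, 7.51 and 5.25 CPM in bladder and 17.9, 13.3 and 14.4 CPM in urethra (-1.31 ± 0.20, adjusted p = 0.000336). None of these genes had overlapping groups, and neither did Hoxd10 (6.35, 6.65 and 4.93 against 14.6, 12.99 and 14.99 CPM, -1.25 ± 0.19, adjusted p = 0.000322). Hoxd8 was at 33.8, 27.3 and 30.8 CPM in bladder and 13.6, 15.9 and 15.5 CPM in urethra (1.03 ± 0.14, adjusted p = 0.000171). The change of direction between Hoxd10 and Hoxd8 was therefore seen in both sets of litters. Cartilage markers again moved with the HoxD block (2 of 3 tested lower in bladder, sums of 1.12 to 2.47 against 12.1 to 22.4 CPM, at most 1 at 0), as did neuronal (9 of 9) and glial markers (4 of 5). Of 6 skeletal muscle markers 4 were lower and 1 higher in bladder, while their sum was higher there (473 to 699 against 199 to 281 CPM). Of 5 endothelial markers 2 were lower in bladder. The part of these markers was not tested.

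Group 13 outside HoxD differed less. Hoxa13 was at 68.0, 58.9 and 56.0 CPM in bladder and 96.7, 67.8 and 82.0 CPM in urethra, where the lowest urethral library lay just under the highest bladder library (-0.43 ± 0.15, adjusted p = 0.0373). That call ended without bladder replicate 2 or 3 or urethra replicate 1 or 3 (adjusted p = 0.0855 to 0.182). Hoxb13 was at 7.47, 4.61 and 8.45 CPM in bladder and 6.75, 4.425 and 6.52 CPM in urethra, with overlap (0.22 ± 0.67, adjusted p = 0.841). In HoxA the replicate block added a call for Hoxa11, higher in bladder (0.42, adjusted p = 0.0153).

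The HoxC genes showed their largest compartment differences at E18.5. Hoxc10, a gene of the lumbar level, was at 3.33, 4.51 and 4.38 CPM in bladder and 16.9, 28.6 and 20.95 CPM in urethra (-2.44 ± 0.32, adjusted p = 0.000114). Hoxc9, which sets thoracic identity of motor neurons, was at 1.16, 1.555 and 0.768 CPM in bladder and 5.68, 7.91 and 6.52 CPM in urethra (-2.55 ± 0.41, adjusted p = 0.000426). Hoxc11 was at 2.915, 4.88 and 3.58 CPM in bladder and 8.37, 11.8 and 7.45 CPM in urethra (-1.28 ± 0.28, adjusted p = 0.003). In each of these the lowest urethral library was above the highest bladder library. Hoxc4, at the 3′ end, was at 1.72, 2.84 and 2.69 CPM in bladder and 5.38, 5.08 and 4.76 CPM in urethra (-1.07 ± 0.39, adjusted p = 0.0467), and its call ended whichever of the 6 libraries was left out (adjusted p = 0.0691 to 0.155). Neuronal markers moved with HoxC: 9 of 9 were lower in bladder, none at 0, with sums of 44.1, 65.1 and 100 CPM in bladder and 468, 1223 and 1003 CPM in urethra, replicates 1 to 3 in order, and their part in the difference was not tested.

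**Figure D3:**
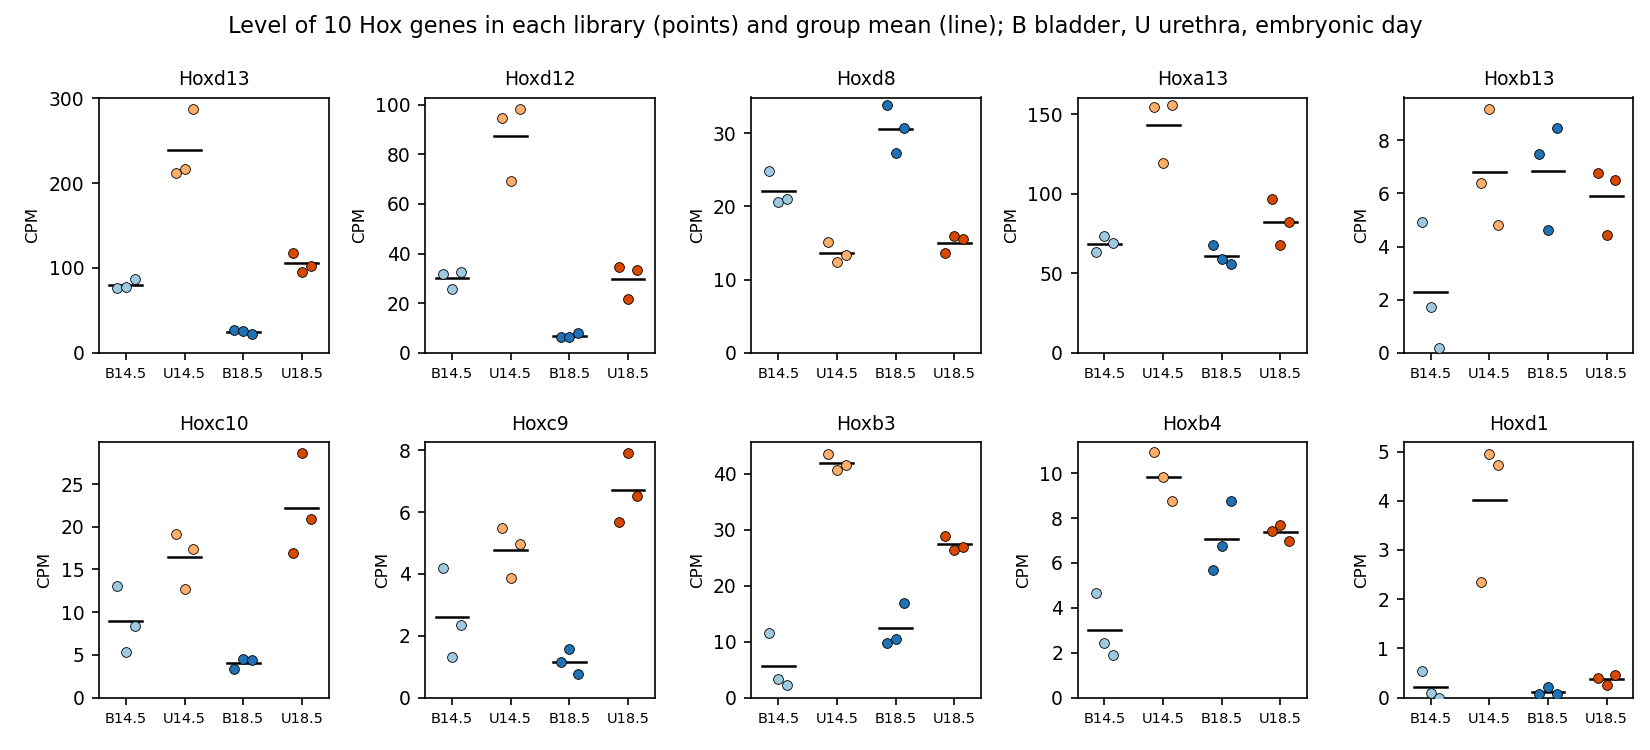
Level in CPM (vertical axis, from 0) of 10 Hox genes in each of the 12 libraries, by group (B bladder, U urethra, with the embryonic day). Points are libraries from replicate 1 on the left to 3 on the right and lines are group means. Hoxd13 and Hoxd12 are separated between compartments at both stages, Hoxd8 the other way, and bladder E14.5 replicate 1 is the highest of its group in Hoxb13, Hoxb3, Hoxb4 and Hoxd1.

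Of the called genes, 5 were lower in bladder at both stages (Hoxd13, Hoxd12, Hoxd11, Hoxd10 and Hoxa13) and 1 was higher at both (Hoxd8). Whether a difference changed between stages was tested directly, as the difference at E18.5 minus that at E14.5. This change was called in 1 gene upward (2.8% of 36, where 4.64% of all genes were) and 1 downward (2.8%, where 4.03% were). Hoxb4 changed by 1.66 ± 0.42 on the log2 scale (adjusted p = 0.03): its difference was -1.71 at E14.5 and -0.06 at E18.5, where bladder had 5.68, 6.76 and 8.77 CPM and urethra 7.41, 7.70 and 6.955 CPM with overlap. Hoxc10 changed by -1.56 ± 0.44 (adjusted p = 0.0433). Its difference was -0.88 at E14.5, where bladder had 13.1, 5.345 and 8.35 CPM and urethra 19.2, 12.7 and 17.4 CPM, and -2.44 at E18.5.

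Both calls were near the threshold. Leaving out 1 library ended the Hoxb4 call in 7 of 12 cases (bladder E14.5 replicates 2 and 3, urethra E14.5 replicate 1, bladder E18.5 replicate 3 and each urethral E18.5 replicate, adjusted p = 0.0516 to 0.0735). It ended the Hoxc10 call in 9 of 12, in all but bladder E14.5 replicate 2, urethra E14.5 replicate 1 and urethra E18.5 replicate 1 (adjusted p = 0.0649 to 0.112). With limma-voom the Hoxc10 change was not called (-1.45, adjusted p = 0.0684). Without bladder E14.5 replicate 1, 10 Hox genes changed upward, among them Hoxb2 (2.58) and Hoxb3 (2.76). The median change by cluster was 1.66 in HoxB, 0.62 in HoxA, 0.33 in HoxD and -1.32 in HoxC, on the log2 scale, and 0.018 over all genes. For group 13 it was -0.52 ± 0.19 in Hoxd13 (adjusted p = 0.117), 0.63 ± 0.21 in Hoxa13 (0.0811) and 1.80 ± 0.96 in Hoxb13 (0.283), none of which passed.

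From E14.5 to E18.5 in bladder mesenchyme, 9 of 36 Hox genes rose (25.0%, where 23.7% of all genes did) and 8 fell (22.2%, where 22% did), shares near those of all genes. Stages came from separate litters and were deposited as separate tables, so stage and litter set cannot be told apart. Directions differed by position in the cluster, described here by counts: of groups 9 to 13, 2 of 14 tested genes rose and 8 fell, and of groups 4 to 8, 6 of 15 rose and 0 fell. At an unadjusted p under 0.05, 1 of those 15 fell. Epithelial (10 of 10) and smooth muscle (6 of 6) markers rose as well, the latter to a sum of 21640 to 40370 CPM, none at 0, and their part in the Hox changes was not tested.

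Among the posterior genes, Hoxd12 fell by 2.12 ± 0.20 on the log2 scale (adjusted p = 1.5e-05), Hoxd13 by 1.70 ± 0.14 (7.65e-06) and Hoxd11 by 1.26 ± 0.20 (0.000356). Hoxd10 fell by 0.76 ± 0.19 (adjusted p = 0.00618), which makes 4 HoxD genes. In HoxC, Hoxc11 fell from 8.55, 11.9 and 9.13 to 2.915, 4.88 and 3.58 CPM without overlap (-1.38 ± 0.28, adjusted p = 0.00146). Hoxc10 fell by 1.13 ± 0.32 (adjusted p = 0.0111), a call that ended without bladder E14.5 replicate 1 (adjusted p = 0.0535). Hoxc9 and Hoxb9 fell too (adjusted p = 0.0295 and 0.0164), with calls that ended in 4 leave-outs (replicates 1 and 3 of each stage, adjusted p = 0.0508 to 0.162) and 2 (E14.5 replicate 1 and E18.5 replicate 2, adjusted p = 0.0647 to 0.0781). Hoxa13 was not called (-0.17 ± 0.15, adjusted p = 0.355). Neither was Hoxb13 (1.59 ± 0.70, adjusted p = 0.0831), which DESeq2 (1.60, adjusted p = 0.0333), limma-voom (2.55, adjusted p = 0.0138) and edgeR without bladder E14.5 replicate 1 (2.84, adjusted p = 0.00385) called as higher at E18.5. Cartilage markers fell in bladder with these genes (2 of 3 tested).

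The 9 genes that rose in bladder were 3 of HoxA, 4 of HoxB and 2 of HoxD. Hoxa9, known from blood cell and lumbosacral development, rose from 23.9, 13.9 and 13.5 to 34.9, 41.1 and 49.95 CPM, with no overlap (1.30 ± 0.26, adjusted p = 0.00143). Hoxb4 rose by 1.24 ± 0.30 (adjusted p = 0.0054). Hoxb5 was at 1.91, 3.43 and 6.11 CPM at E18.5 and rose by 1.56 ± 0.42 (adjusted p = 0.00889). Hoxb6, a gene of the lateral plate mesoderm, rose from 5.21, 3.07 and 1.21 to 5.53, 10.2 and 14.1 CPM (1.66 ± 0.48, adjusted p = 0.0131), and Hoxa7 from 9.42, 6.96 and 7.395 to 12.7, 12.01 and 16.6 CPM (0.80 ± 0.23, adjusted p = 0.012). The calls of Hoxb5, Hoxb6 and Hoxa7 ended without bladder E18.5 replicate 3 (adjusted p = 0.0564, 0.0589 and 0.0588), the highest library of all 3 genes. Hoxd8 rose by 0.47 ± 0.14 (adjusted p = 0.0178), a call that ended without E14.5 replicate 2 or 3 or E18.5 replicate 1 (adjusted p = 0.0657 to 0.0721). Hoxb2, Hoxa10 and Hoxd4 rose as well (adjusted p = 0.0214, 0.0308 and 0.0325). Their calls ended without E14.5 replicate 2 or 3 or E18.5 replicate 3, and for Hoxa10 also without E18.5 replicate 2 and for Hoxd4 without E18.5 replicate 1 (adjusted p = 0.0502 to 0.121). Without bladder E14.5 replicate 1 the rise of Hoxb2 was 1.99 instead of 1.22, and 14 genes rose and 5 fell. Without bladder E18.5 replicate 3, 3 genes rose and 7 fell.

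**Figure D4:**
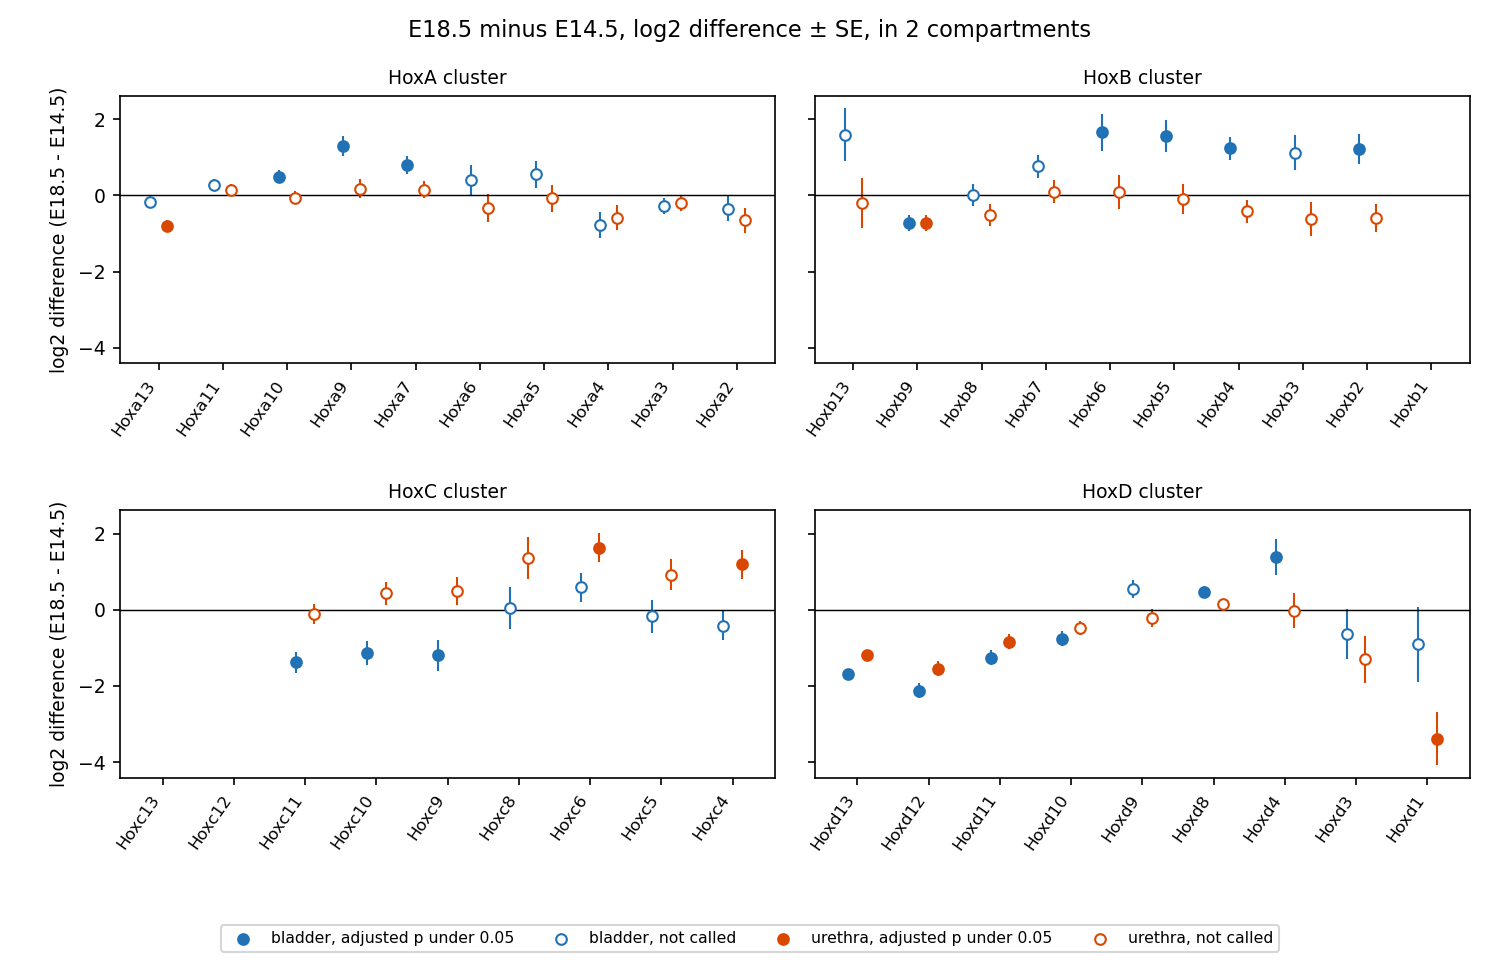
Log2 difference between stages (vertical axis, E18.5 minus E14.5, ± SE) for tested Hox genes of each cluster from 5′ to 3′, in bladder (blue) and urethral (orange) mesenchyme, n = 3 libraries per group. Filled points passed an adjusted p of 0.05. Hoxd13, Hoxd12 and Hoxd11 lie below 0 in both compartments, Hoxb2, Hoxb4, Hoxb5 and Hoxb6 above 0 in bladder, and Hoxc6 and Hoxc4 above 0 in urethra.

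In urethral mesenchyme, 2 of 36 Hox genes rose between the stages (5.6%, where 13.6% of all genes did) and 7 fell (19.4%, where 10.8% did). Hoxd13 fell by 1.18 ± 0.14 on the log2 scale (adjusted p = 0.000286), Hoxd12 by 1.55 ± 0.19 (0.000404) and Hoxd11 by 0.85 ± 0.20 (0.00902), so that these 3 genes fell in both compartments. Hoxa13 fell by 0.80 ± 0.15 (adjusted p = 0.00272). Hoxd1 fell from 2.345, 4.945 and 4.74 to 0.406, 0.246 and 0.468 CPM, without overlap (-3.39 ± 0.70, adjusted p = 0.00507). Hoxb9, a gene of the thoracic level, went from 11.01, 11.9 and 11.9 to 7.51, 6.72 and 6.955 CPM without overlap (-0.72 ± 0.21, adjusted p = 0.0277). That call ended whichever of the 6 libraries but urethra E14.5 replicate 1 was left out (adjusted p = 0.0548 to 0.0931). Other cell types' markers also changed in urethra. The 6 skeletal muscle markers rose, from sums of 5.21 to 48.98 CPM to sums of 199 to 281 CPM, with at most 1 at 0 in a library. The 4 leukocyte markers rose as well, as did 6 of 10 epithelial and 4 of 6 mesothelial ones, while 1 mesothelial and 1 of 3 tested cartilage markers fell. Their part in the Hox changes was not tested.

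The genes that rose in urethra were 2 HoxC members. Hoxc6 went from 1.17, 2.198 and 1.98 to 6.65, 6.60 and 3.45 CPM, with no overlap (1.63 ± 0.39, adjusted p = 0.00976). Hoxc4 went from 2.50, 2.41 and 1.76 to 5.38, 5.08 and 4.76 CPM (1.19 ± 0.38, adjusted p = 0.0402), and its call ended in each of 6 leave-outs (adjusted p = 0.058 to 0.143). In 5 of the 7 tested HoxC genes every E18.5 urethral library was above every E14.5 one, where 21.3% of all genes showed this. In bladder the same held for 0 of the 7, against 28.5% of all genes. Hoxb7 passed in none of the comparisons between compartments or stages in the main edgeR fit (smallest adjusted p = 0.0584, in bladder between stages). It was at 5.165, 4.06 and 2.64 CPM in bladder and 3.86, 5.155 and 6.755 CPM in urethra at E14.5, and at 6.39, 5.52 and 8.19 CPM and 4.36, 5.82 and 6.66 CPM at E18.5. It was 1 of 13 tested members with no call by the main edgeR fit in these comparisons. Beside Hoxa11, Hoxb13 and Hoxd9, the others were Hoxa2, Hoxa3, Hoxa4, Hoxa5, Hoxa6, Hoxb8, Hoxc5, Hoxc8 and Hoxd3, with group means of 0.149 to 3.08 CPM per kilobase. Other tools called further genes, Hoxb13 among them. In bladder between stages, 13 Hox genes rose with DESeq2 and 12 with limma-voom, against 9 in the main fit. These can include members of the 13 other than Hoxb13.

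Shares of the summed Hox level within a library do not depend on the scaling of libraries. HoxA held 44.7 ± 0.55% (SD, n = 3) in bladder and 35.15 ± 2.81% in urethra at E14.5, and 56.8 ± 1.58% and 41.35 ± 1.58% at E18.5. HoxD held 38.99 ± 3.12% in bladder and 48.7 ± 3.53% in urethra at E14.5, and 22.5 ± 1.82% and 34.85 ± 1.68% at E18.5. HoxC went from 7.99 ± 1.00% in bladder and 5.41 ± 0.74% in urethra to 4.82 ± 0.85% and 11.5 ± 2.74%. HoxB held 8.34 ± 3.08% and 10.7 ± 1.04% at E14.5 and 15.95 ± 3.26% and 12.3 ± 0.64% at E18.5. Bladder and urethra did not overlap for the shares of HoxA, HoxC and HoxD at either stage, and of these 3 HoxC was the one in which the higher compartment differed between stages. The exact two-sided permutation test of 3 against 3 libraries cannot go below p = 0.1, which these comparisons reached (adjusted p = 0.114 over 16 comparisons of clusters). Members that share exon bases with other genes weigh on some shares. Without them the HoxA difference at E14.5 was 4.23 in place of 9.53 percentage points, and its urethral stage difference 4.18 in place of 6.20. The HoxB difference at E18.5, 3.63 percentage points, was 7.10 without them, 1.565 as shares of counts (exact permutation p = 0.7) and 1.75 without bladder replicate 3.

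Within paralogue group 13, the leading gene differed between compartments at E18.5. Hoxd13 held 52.8 ± 2.46% of the group's level in bladder and 61.0 ± 3.89% in urethra at E14.5, and 26.5 ± 1.61% and 54.3 ± 2.03% at E18.5. Hoxa13 held 45.45 ± 2.38% and 36.99 ± 3.90% at E14.5, and 65.3 ± 1.43% and 42.3 ± 1.67% at E18.5. In bladder at E18.5 Hoxa13 was thus the more abundant per length, in all 3 libraries (63.6 to 66.3%), and in the other groups Hoxd13 was in every library. Hoxb13 reached 8.24 ± 2.49% in bladder at E18.5 and 3.40 ± 0.43% in urethra. The exact permutation p was 0.1 for Hoxa13 and Hoxd13 between compartments at each stage, the smallest possible (adjusted p = 0.2 over 16). Group 13 as a whole held 36.4 ± 5.24% of the Hox level in bladder and 47.4 ± 3.52% in urethra at E14.5, and 23.8 ± 3.36% and 35.5 ± 3.42% at E18.5. Group 12, which is nearly all Hoxd12, went from 6.99 ± 0.77% and 10.4 ± 1.46% to 1.69 ± 0.13% and 5.35 ± 1.08%.

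**Figure D5:**
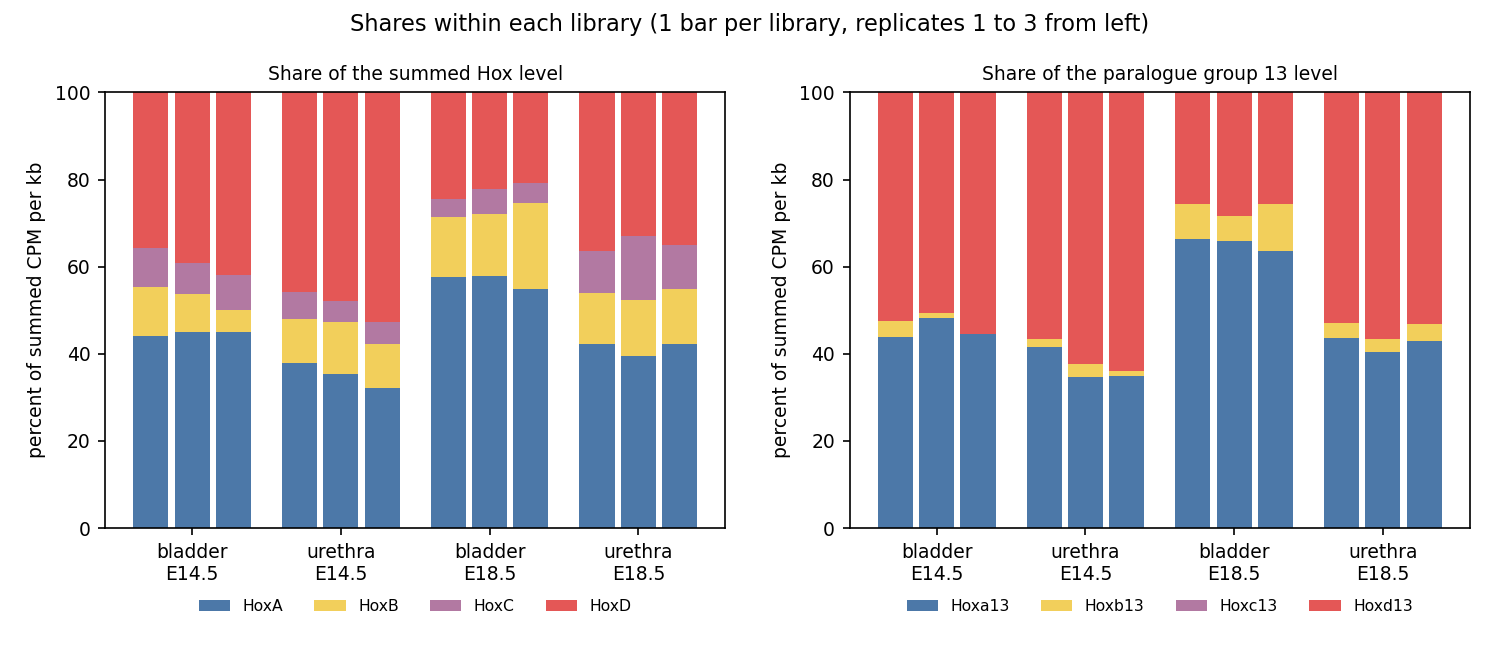
Percent of the summed CPM per kilobase held by each cluster (left, all Hox genes) and by each gene of paralogue group 13 (right), with 1 bar per library and 3 libraries per group. The HoxD part is smallest in the bladder bars at E18.5 (20.8 to 24.4%), where Hoxa13 instead of Hoxd13 is the larger part of group 13.

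Across the 36 tested genes, Spearman's rho between paralogue number and the log2 difference between compartments was 0.01 at E14.5 and -0.17 at E18.5. With the change of that difference it was -0.38, and with the stage difference -0.25 in bladder and 0.11 in urethra. These genes share libraries and neighbours, so the values are descriptions. Between exon length and the compartment difference rho was -0.03 at E14.5 and 0.05 at E18.5.

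The genes that flank or lie within the clusters were read against all genes, of which 12.5% were lower and 12.4% higher in bladder at E14.5, and 16.2% lower and 34.8% called either way at E18.5. Of 13 genes beside the clusters, 9 were tested, and the 5 called at E14.5 were lower in bladder, while at E18.5 3 were lower and 1 was higher. Their median log2 difference was -0.56 at E14.5 and -0.26 at E18.5, against -0.004 and 0.047 over all genes. Without bladder E14.5 replicate 2, 3 of the 5 were still called. The even-skipped homologue Evx2, next to Hoxd13, differed by -3.84 ± 0.39 at E14.5 (adjusted p = 8.72e-05) and -3.99 ± 0.41 at E18.5 (2.06e-05). Evx1, next to Hoxa13, differed by -1.73 ± 0.21 (adjusted p = 0.000224) and -3.25 ± 0.23 (1.85e-06). Of 11 non-coding transcripts of the clusters, 10 were tested, and the 5 called at E14.5 were lower in bladder, while at E18.5 4 were lower and 1 was higher (median -1.215 and -0.37), the higher call ending without bladder replicate 2 or 3 or urethra replicate 1 or 2. Hottip, the non-coding transcript at the 5′ end of HoxA, was among the lower ones at both stages (-2.37 ± 0.26 and -2.78 ± 0.26, adjusted p = 0.000121 and 1.28e-05). Hoxa13 and Hoxd13, with the Evx gene beside each, were thus called lower in bladder at both stages. At E18.5 the Hoxa13 libraries overlapped, and its call ended in 4 of 6 leave-outs. Hoxa11, the next HoxA member, was higher in every bladder library at E18.5 without a call in the main fit (0.42, adjusted p = 0.069).

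Cofactors and regulators of Hox genes were measured from lists of known genes. For comparison, 12.5% of all genes were lower and 12.4% higher in bladder at E14.5, and at E18.5 16.2% were lower and 34.8% called either way. Of 9 TALE homeodomain cofactors, which bind DNA together with HOX proteins, 1 was higher and 1 lower in bladder at E14.5, and 2 were higher and 3 lower at E18.5 (median -0.10 at both), with shares at E14.5 near those of all genes. The higher one at E14.5, Meis1 (0.45, adjusted p = 0.0133), was not called without bladder replicate 2 (adjusted p = 0.0573), and neither of the 2 at E18.5 was without bladder replicate 1 or urethra replicate 2. Meis2 fell in bladder by 1.65 ± 0.11 between stages (adjusted p = 2.1e-06), and its compartment difference changed by -1.32 ± 0.15 (adjusted p = 0.00102). Of 13 upstream regulators (Cdx factors, Gdf11 and genes of retinoic acid signalling), 9 were tested. The 5 called at E14.5 were lower in bladder, and at E18.5 7 were lower and 1 was higher (median -0.78 and -0.90), the higher call ending in 5 of 6 leave-outs (all but bladder replicate 1). The retinoic acid receptor Rarb, which retinoic acid induces, differed by -1.11 ± 0.16 (adjusted p = 0.000523) and -1.78 ± 0.16 (9.64e-06).

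Of 24 chromatin regulators of the clusters, from the Polycomb and Trithorax groups, 7 were lower and 1 higher in bladder at E14.5, and 6 lower and 2 higher at E18.5 (median -0.32 and -0.11). Over all genes, 12.5% were lower and 12.4% higher at E14.5, and at E18.5 16.2% were lower and 34.8% were called either way. The share of the 24 called either way at E18.5 was near that of all genes. Of these calls, 4 of the 7 remained without bladder E14.5 replicate 3. At E18.5, 3 of the 6 remained without bladder replicate 1 or 2 or urethra replicate 1 or 3. The 1 higher call at E14.5 ended without replicate 2 or 3 of either compartment, and the 2 at E18.5 without urethra replicate 1. The Polycomb gene Bmi1 differed by -1.08 ± 0.13 (adjusted p = 0.000196) and -1.06 ± 0.13 (6.26e-05). Of 9 genes described as HOX13 targets in limb or genital tissue, 8 were tested, with 5 lower and 1 higher in bladder at E14.5, and the 5 called at E18.5 were lower (median -1.05 and -0.72). Aldh1a2 belongs to this list and to that of the upstream regulators, so the counts of these lists are not independent. At E14.5, 2 of the 5 remained without bladder replicate 2 or urethra replicate 1 or 3. Bmp2 and Epha6 were not called in any of these or without bladder replicate 3 (adjusted p = 0.072 to 0.118 and 0.07 to 0.104). The ephrin receptor gene Epha7, known from HOXA13 studies of limb and genital vessels, differed by -1.73 ± 0.19 (adjusted p = 0.000129) and -1.23 ± 0.19 (0.000317). Sostdc1, a secreted inhibitor of BMP and Wnt signals, differed the other way at E14.5 (2.48 ± 0.35, adjusted p = 0.000523).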

How the data were processed

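Bladder and urethral mesenchyme of pooled female CD-1 litters was sequenced as directional poly(A) libraries, per the labels' protocols. The deposited values are whole-number counts of reads per gene in 1 table per stage, with a column of gene length, per the file headers. Per the submitters' processing notes, the software included HISAT2 2.2.1 with SAMtools 1.9 and bcl2fastq, and the genome build was GRCm38, while the counting tool and its strand setting are not given in the sources used here. The members and the gene lists were chosen with earlier results of these data known.

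Counts were scaled by TMM and given as CPM, and as CPM per kilobase of the deposited length. Differences were tested with edgeR 4.0.16 (quasi-likelihood test, R 4.3.3) over 18805 genes in 1 fit of all 12 libraries, with Benjamini-Hochberg adjustment. Values per library are given for called members with at least 1 CPM (up to 12 per compartment comparison and 6 per direction between stages, by adjusted p), the 4 highest per cluster and paralogue group 13. Other members are given by counts and ranges, and 1 member enters the counts and sums but is not reported singly here. Alternatives were DESeq2 1.42.0, limma 3.58.1 (voom), median-ratio scaling, other count filters, a replicate block, separate fits and leaving out each library. A fit without either E14.5 library numbered 1 was chosen after seeing the data.

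Replicate numbers were taken to pair compartments at E18.5, where same-numbered libraries deviated together (correlations 0.197, 0.193 and 0.286). They were not taken to do so at E14.5 (0.191, -0.028 and 0.206). With 3 libraries per group such values cannot settle pairing at either stage. Column names number bladder and urethral libraries in alternation at both stages, and no label ties a number to a litter. The main fit and the permutation tests treated libraries as unpaired at both stages. With the replicate block, 10 Hox genes were lower and 2 higher in bladder at E18.5, against 9 and 1 in the main fit. On simulated data, 46.9% of genes changed 2-fold and 77.8% of those changed 4-fold were recovered at E14.5 (18472 genes), and 43.3% and 68% at E18.5 (18457 genes). For the change of the difference they were 15.2% and 62% (18459 genes), for the stage difference 48% and 72.7% in bladder (18486 genes) and 54% and 76.3% in urethra (18475 genes). False calls made up 2.38% of calls at E14.5, 7.56% at E18.5, 3.75% for the change, 5.51% for bladder stages and 6.57% for urethra stages. Each simulation changed 200 genes, a far smaller share than the 34.8% of all tested genes called at E18.5 in the real data. Both kinds of rate depend on that share, so they do not measure recovery or false calls in the real comparisons.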

Additional observations from a re-analysis of the deposited data

Results flagged for a closer look

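The difference between bladder and urethra was itself tested for a change between E14.5 and E18.5, and 2 Hox genes passed. Hoxb4 changed by 1.66 on the log2 scale and Hoxc10 by -1.56 (edgeR's quasi-likelihood test, adjusted p = 0.03 and 0.0433). Each is 2.8% of the 36 tested Hox genes, where 4.64% of all genes changed upward and 4.03% downward. Leaving out 1 library ended the Hoxb4 call in 7 of 12 cases and the Hoxc10 call in 9 of 12. Hoxc10 was not called by limma-voom either (adjusted p = 0.0684). Stage and litter set cannot be told apart.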

How the results depend on the processing

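Leaving out 1 library moved the number of Hox genes lower in bladder between 9 and 19 at E14.5 and between 7 and 8 at E18.5, and the number higher between 1 and 2 at E14.5, with 1 at E18.5 each time. The numbers that changed between stages in their compartment difference ranged from 0 to 10 upward and from 0 to 3 downward. In bladder between 3 and 14 rose and between 5 and 8 fell with stage, and in urethra between 1 and 2 rose and between 5 and 8 fell. Bladder E14.5 replicate 1 gave the 19, the 10 and the 14, and a fit without either E14.5 library numbered 1 gave 19 lower at E14.5, 10 changed upward, and 15 up and 5 down with stage in bladder. At E18.5, 2 genes were higher in bladder under the stricter filter, 2 with the replicate block and 3 with only those libraries fitted. Upward changes numbered 5 with DESeq2, 3 with limma-voom, 2 without a filter and 2 with the replicate block, and downward changes 4 with DESeq2. At E18.5, the replicate block added Hoxa11 (0.42, adjusted p = 0.0153) and Hoxb3 (-1.19, adjusted p = 0.0347). At E14.5 it ended the Hoxa10 call (adjusted p = 0.0661), where the numbers are not taken to pair. With plain CPM in place of TMM the summed level was 355.9 in urethra at E14.5, 139.3 in bladder and 237.6 in urethra at E18.5, in CPM per kilobase. Of 719 alternatives for single named genes, 650 kept direction and side of the threshold, 56 lost the call, 12 gained one and 1 reversed: Hoxb13 in urethra between stages, uncalled, ranged from -0.398 to 0.078 when 1 library was left out (0.078 without urethra E14.5 replicate 2). The cause of these shifts was not tested. Depth limits statements on Hoxb1, Hoxc12 and Hoxc13.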
